A study of Mus musculus with 8 samples.

Results

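The proteasome subunit genes were described in mouse embryonic fibroblasts (MEFs) that lacked Cebpg. They were taken as all genes with a symbol of Psm, 1 letter from a to g and a number, for which the array's annotation table lists a probe set that names no other gene, and 47 of 18193 measured genes met this rule. Psme2 has 1 probe set that names a second gene as well, and it was not analysed here. Where several probe sets name a gene, the brightest over all 8 arrays stands for it. The compared samples were 4 Cebpg-/- and 4 WT (wild type) cultures on a C57BL/6 background, grown from E13.5 embryos, plated at equal density at passage 3 and collected 48 hours later. The labels name biological replicates without saying whether each came from its own embryo, and a p-value here speaks only for the spread among the cultures compared. Total RNA of each culture was hybridised to 1 Affymetrix array, and its RMA values are given as log2, where a step of 1 is a doubling. The number of arrays limits the precision.

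The proteasome is the protease that degrades proteins tagged with ubiquitin. Its 20S core is a barrel of alpha subunits, which form the gate, and beta subunits, some of which cut peptides. The 19S particle caps the core, binds and unfolds the tagged protein and feeds it in, using a ring of ATPases. In cells exposed to interferon and in leukocytes, immunoproteasome subunits take the place of the cutting subunits of the core. Subunit genes are known to be raised together by the transcription factor NRF1 (gene Nfe2l1) when the proteasome is inhibited. C/EBPγ, the product of Cebpg, is a basic leucine zipper factor that binds DNA as a dimer, with ATF4 among its partners.

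Upstream sequences are shown because the members' changes mostly pointed one way. Of the 47 genes, 39 matched the RefSeq promoter table (GRCm38.p6), with 41 annotated starts. The 250 bases before the start are printed 5′ to 3′ for the 5 genes that passed the test and for Psmb5, the gene of a cutting subunit whose upstream sequence holds an antioxidant response element core. Capitals mark matches, on either strand, to that core (TGACNNNGC, bound by NRF1 and NRF2 with a small MAF partner), to a composite element of C/EBP and ATF factors (TGATGNAA), to the CCAAT box (CCAAT) and to an interferon-stimulated response element (GAAA, a pair of any bases, GAAA).
Psma2, chr13:14612992-14613241, plus strand: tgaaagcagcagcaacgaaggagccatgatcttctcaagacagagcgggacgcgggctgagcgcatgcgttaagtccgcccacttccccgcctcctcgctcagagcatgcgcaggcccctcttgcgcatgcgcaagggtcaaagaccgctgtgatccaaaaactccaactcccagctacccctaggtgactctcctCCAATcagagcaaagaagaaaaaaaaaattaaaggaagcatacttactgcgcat
Psmb3, chr11:97703184-97703433, plus strand: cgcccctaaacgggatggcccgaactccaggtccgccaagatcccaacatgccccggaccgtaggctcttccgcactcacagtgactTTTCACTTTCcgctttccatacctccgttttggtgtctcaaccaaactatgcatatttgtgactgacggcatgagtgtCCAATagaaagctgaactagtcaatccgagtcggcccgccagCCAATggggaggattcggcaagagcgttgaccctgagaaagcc
Psmb4, chr3:94886959-94887208, minus strand: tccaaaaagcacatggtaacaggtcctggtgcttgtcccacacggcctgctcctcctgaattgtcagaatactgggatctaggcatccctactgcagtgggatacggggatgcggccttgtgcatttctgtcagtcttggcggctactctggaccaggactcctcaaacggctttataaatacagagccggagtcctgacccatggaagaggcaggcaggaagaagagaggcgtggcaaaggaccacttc
Psmd11, chr11:80428365-80428614, plus strand: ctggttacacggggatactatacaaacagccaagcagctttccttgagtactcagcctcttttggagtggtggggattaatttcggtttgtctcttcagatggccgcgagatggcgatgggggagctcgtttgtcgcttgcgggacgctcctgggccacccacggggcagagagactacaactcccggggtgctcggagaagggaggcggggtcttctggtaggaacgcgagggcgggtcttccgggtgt
Psmd5, chr2:34870963-34871212, minus strand: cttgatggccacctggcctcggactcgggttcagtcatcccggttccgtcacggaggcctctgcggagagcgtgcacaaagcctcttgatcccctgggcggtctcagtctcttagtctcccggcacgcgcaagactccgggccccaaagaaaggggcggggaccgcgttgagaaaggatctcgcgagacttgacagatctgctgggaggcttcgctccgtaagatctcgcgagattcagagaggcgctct
Psmb5, chr14:54617996-54618245, minus strand: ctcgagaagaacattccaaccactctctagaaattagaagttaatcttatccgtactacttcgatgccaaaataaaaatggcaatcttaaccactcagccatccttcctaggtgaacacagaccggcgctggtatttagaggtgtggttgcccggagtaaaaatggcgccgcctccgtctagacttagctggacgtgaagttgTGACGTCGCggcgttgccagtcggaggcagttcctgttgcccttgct

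Those of Psmd5, Psmd11 and Psmb4 hold no match. For 3 of the 4 motifs the share among member promoters was close to that of all promoters. The antioxidant core stood in 12.2% of the 41 member promoters and in 10.2% of all 32851 promoters of the same length. Its carriers were Psmb5, Psmb6, Psmc6, Psmd12 and Psmd9, and none of the 5 passed the test described next. The C/EBP-ATF element stood in 2.44% of the member promoters, in Psmd13 alone, and in 3.45% of all promoters. The CCAAT box was found in 34.1% of the member promoters and in 33.8% of all promoters, with 2 matches before Psmb3 and 1 before Psma2. The interferon element stood before Psmb3, Psmd4 and Psmd9, which is 7.32% of the member promoters against 2.98% of all promoters. The median log2 change was 0.14 over the 5 carriers of the antioxidant core and 0.13 over the 34 members without it. The matches do not overlap in the sequences printed.

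Cebpg was examined first. Of its 3 probe sets 1 passed, with values of 5.42, 5.69, 5.44 and 5.57 in Cebpg-/- and 6.29, 6.23, 6.32 and 6.41 in WT (change of -0.78, limma adjusted p = 0.000593 over all probe sets). A second probe set had a change of -0.17 with overlapping groups (limma, adjusted p = 0.275 over all probe sets). The third went the other way, with 3.01, 3.20, 2.96 and 3.05 in Cebpg-/- and 2.78, 2.90, 2.60 and 2.91 in WT, a change of 0.26 with no overlap (limma, adjusted p = 0.0942 over all probe sets). Which of the 3 lie in the deleted part is not given in the sources used here. Of 12 fibroblast markers 6 were lower and 0 higher in Cebpg-/-, where 3.99% of all genes were called lower and 8.62% higher. A positive change was found in 2 of the 12. The collagen gene Col1a2 read 12.17, 12.37, 12.11 and 12.34 in Cebpg-/- and 12.68, 12.61, 12.75 and 12.72 in WT (change of -0.44, limma adjusted p = 0.00506). All 20 leukocyte markers had a positive change, and 1 of them, Cd14, passed. An unadjusted p under 0.05 was found for 15 of the 20 (limma), where 17.5% of all genes were higher at that cut. The median change of these markers was 1.52. Their mean was 7.44, 4.79, 6.74 and 6.34 in Cebpg-/- replicates 1 to 4 and 3.55, 5.26, 5.22 and 5.41 in WT replicates 1 to 4, so the highest array was Cebpg-/- replicate 1 and the lowest WT replicate 1. The groups overlapped, with Cebpg-/- replicate 2 below WT replicates 2 to 4. Where the mean was higher, more leukocytes and more of their RNA per cell cannot be told apart.

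Most proteasome subunit genes had a small positive change in Cebpg-/- fibroblasts, and few passed the test. Of 47 genes 5 were called higher and 0 lower (limma, adjusted p under 0.05 over all genes), where 8.62% of all genes were called higher and 3.99% lower. In either direction 12.6% of all genes were called, so 5 of 47 is near the background. They encode the core subunits Psma2, Psmb3 and Psmb4, the 19S lid subunit Psmd11 and the 19S assembly chaperone Psmd5. An unadjusted p under 0.05 was found for 21 members with a positive change and for 0 with a negative one, against 17.5% and 10.9% of all genes. The change was positive in 45 of the 47 genes and in 49.7% of all genes. The median change of the members was 0.13 on the log2 scale, against -0.00092 over all genes. In 26 of the 47 genes all 4 Cebpg-/- values lay above all 4 WT values, which held for 12.8% of all genes. In no member did they all lie below, against 6.74% of all genes.

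**Figure D1:**
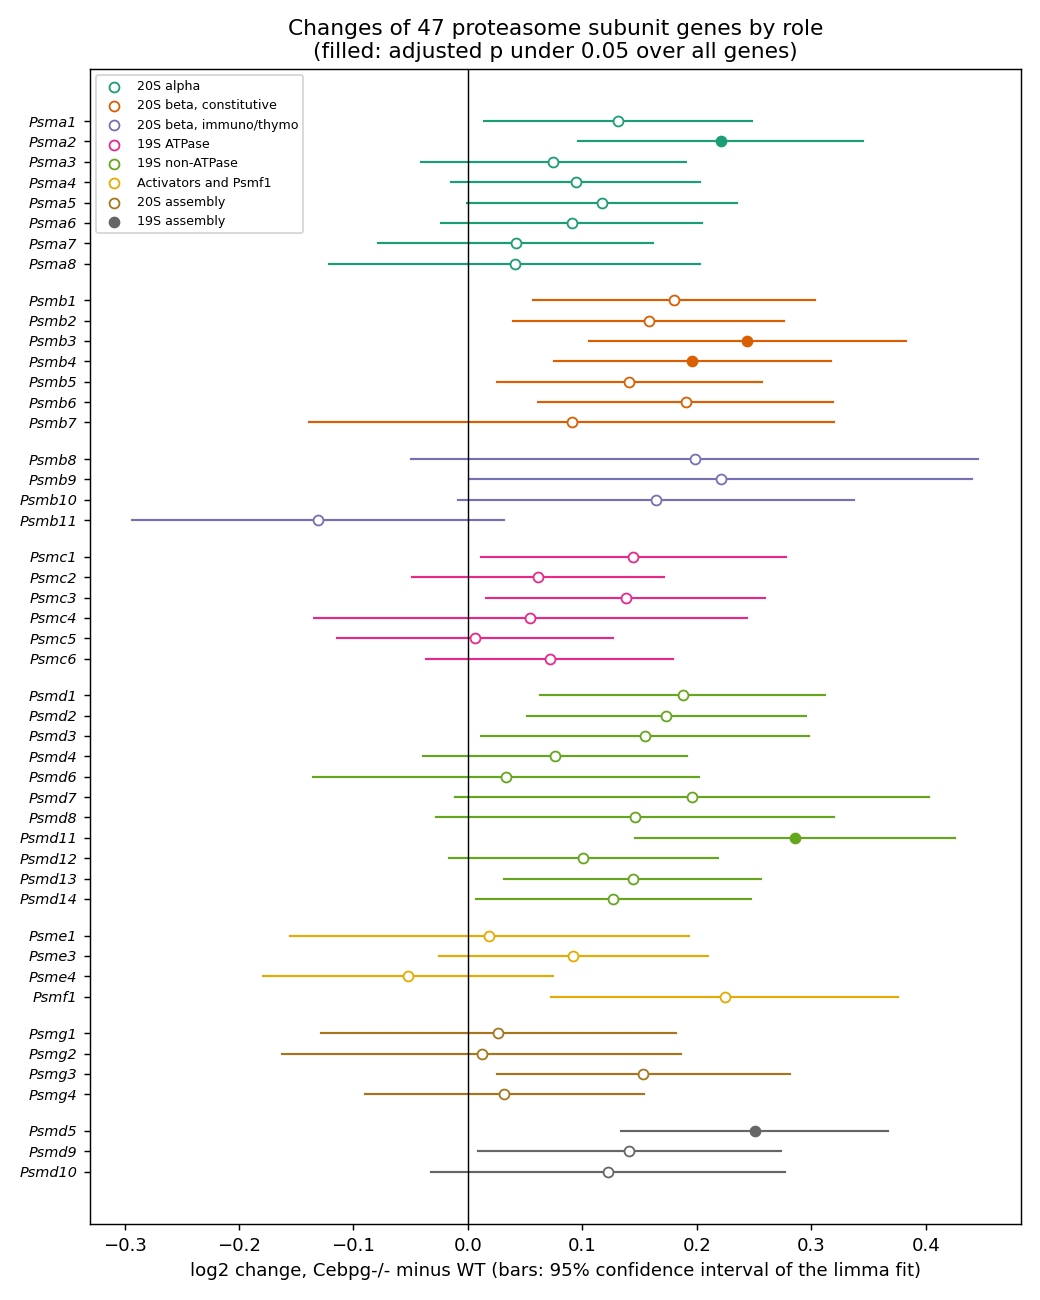
The log2 change of each proteasome subunit gene (Cebpg-/- minus WT, horizontal axis) is drawn by role, with the 95% confidence interval of the limma fit as a bar. Filled points passed at adjusted p under 0.05 over all genes: Psma2, Psmb3, Psmb4, Psmd11 and Psmd5. Nearly all points lie right of 0, with Psmb11 and Psme4 as the exceptions.

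The level of a gene on the array bears on this reading, since most members are bright. Among the 987 genes with a mean of at least 9 the median change was 0.02, and 20.2% had all Cebpg-/- values above all WT values. The 26 members in that range had a median change of 0.13, 26 positive changes and 20 such separations, and 4 of them passed, where 8.41% of genes of that level were called higher. Of 10 members from 7 to below 9, 9 had a positive change, 3 were so separated and 1 was called higher. Among genes of that level these shares were 59.5%, 21.2% and 13%. Of 8 members from 5 to below 7, 8 had a positive change, 3 were separated and 0 called, against 63.7%, 22.5% and 15.3%. The shares over all genes include 10426 genes below 5, of which 41.1% were positive and 6.1% separated. Psma8 and Psmb11 lay far down the scale, at 1.44 and 1.59, below the median probe set of each array (2.705 to 2.757). No direction can be read from them.

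**Figure D2:**
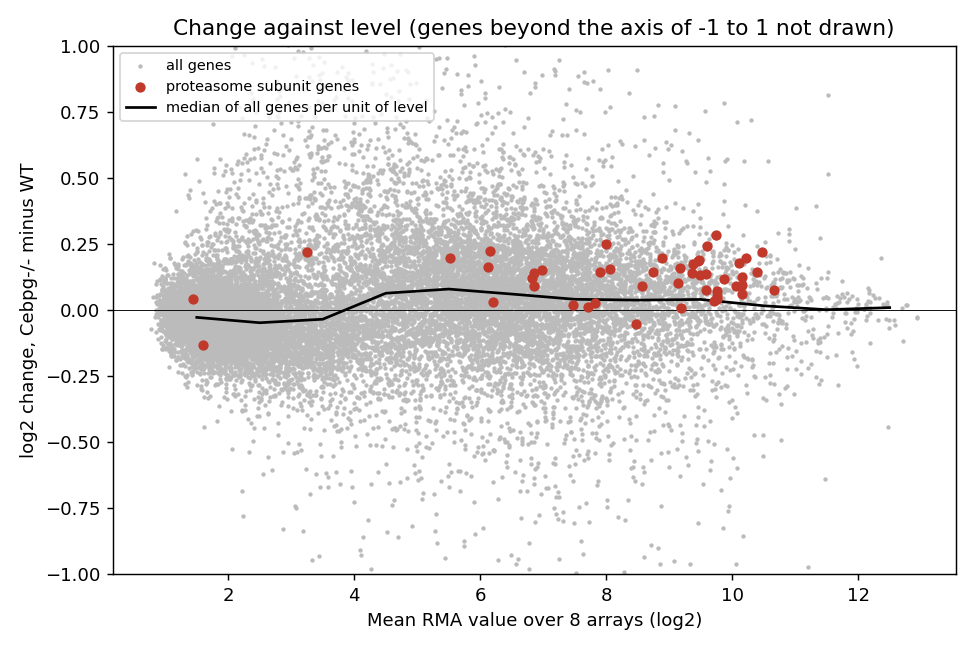
The log2 change (Cebpg-/- minus WT) is plotted against the mean RMA value over 8 arrays for all genes (grey) and for the 47 proteasome subunit genes (red). The black line is the median of all genes in steps of 1 on the horizontal axis, and most red points above a level of 9 lie over it. A further 232 genes lie beyond the drawn range of -1 to 1.

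Alpha subunits of the 20S core form the outer rings and the gate through which substrates enter. Psma2 read 10.66, 10.56, 10.60 and 10.54 in Cebpg-/- and 10.39, 10.35, 10.43 and 10.30 in WT. The groups did not overlap, and Psma2 was 1.17-fold higher (change 0.22, SE 0.06; limma adjusted p = 0.0300). The other 6 alpha genes expressed in most tissues, Psma1 and Psma3 to Psma7, had changes between 0.04 and 0.13 and did not pass. In all of them but Psma7 the Cebpg-/- values lay above the WT values. A second Psma7 probe set had a change of 0.11 with separate groups. Those of Psma5 and Psma6 had changes of 0.12 and 0.08 with overlapping groups. Psma8 is the testis form of the ring, and its 8 values ran from 1.33 to 1.57.

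Constitutive beta subunits had a median change of 0.18. Of 7 genes Psmb3 and Psmb4, which help build the ring without cutting peptides, were called higher, where 8.62% of all genes were. Psmb3 read 9.82, 9.66, 9.72 and 9.66 in Cebpg-/- and 9.51, 9.40, 9.55 and 9.42 in WT, a change of 0.24 (SE 0.06; limma adjusted p = 0.0306). A second Psmb3 probe set rose by 0.25 and passed as well (limma, adjusted p = 0.0339 over all probe sets). Psmb4 read 10.36, 10.32, 10.27 and 10.33 in Cebpg-/- and 10.15, 10.12, 10.16 and 10.04 in WT, a change of 0.20 (SE 0.05; limma adjusted p = 0.0413). Its second probe set had a change of 0.10 and overlapping groups (limma, adjusted p = 0.416 over all probe sets).

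The 3 constitutive subunits that cut peptides did not pass. Psmb5 (chymotrypsin-like activity) read 9.48, 9.44, 9.40 and 9.40 in Cebpg-/- and 9.31, 9.27, 9.33 and 9.25 in WT, a change of 0.14 (limma, adjusted p = 0.106). Psmb6 (caspase-like activity) read 9.64, 9.57, 9.55 and 9.49 in Cebpg-/- and 9.40, 9.38, 9.43 and 9.30 in WT, a change of 0.19 (limma, adjusted p = 0.0583). In both genes every Cebpg-/- value was above every WT value. Psmb7 (trypsin-like activity) read 8.67, 8.70, 8.77 and 8.33 in Cebpg-/- and 8.68, 8.39, 8.46 and 8.59 in WT, and the groups overlapped (change 0.09, limma adjusted p = 0.603). Psmb1 and Psmb2 had changes of 0.18 and 0.16 with separate groups, short of the threshold (limma, adjusted p = 0.0602 and 0.0809).

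Immunoproteasome subunits were measured by Psmb8, Psmb9 and Psmb10, and Psmb11 is the form of the thymus. None of the 4 genes passed (limma), and 1 had an unadjusted p under 0.05. Psmb8, which replaces Psmb5, read 5.79, 5.64, 5.54 and 5.48 in Cebpg-/- and 5.15, 5.58, 5.61 and 5.32 in WT (change 0.20, 95% interval -0.05 to 0.45). Psmb9, which replaces Psmb6, read 3.60, 3.14, 3.38 and 3.31 in Cebpg-/- and 3.14, 3.20, 3.23 and 2.97 in WT (change 0.22, limma adjusted p = 0.173). Psmb10, which replaces Psmb7, read 6.32, 6.15, 6.22 and 6.13 in Cebpg-/- and 5.86, 6.08, 6.17 and 6.05 in WT (change 0.16, limma adjusted p = 0.196). The groups overlapped in all 3 genes. In each of them Cebpg-/- replicate 1, with the highest leukocyte marker mean, was the highest array. In Psmb8 and Psmb10 WT replicate 1, with the lowest marker mean, was the lowest. Cebpg-/- replicate 1 was also the highest array in the constitutive Psmb5 and Psmb6, though not in Psmb7. The mean of all 47 members was highest there too (8.475). Cebpg-/- replicate 2, with the lowest marker mean of the 4 Cebpg-/- cultures (4.79), was the lowest of them in Psmb9 alone. With the marker mean as a covariate the changes were 0.06 for Psmb8, 0.08 for Psmb9 and 0.04 for Psmb10. The part of leukocytes in these values was not tested beyond this fit.

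**Figure D3:**
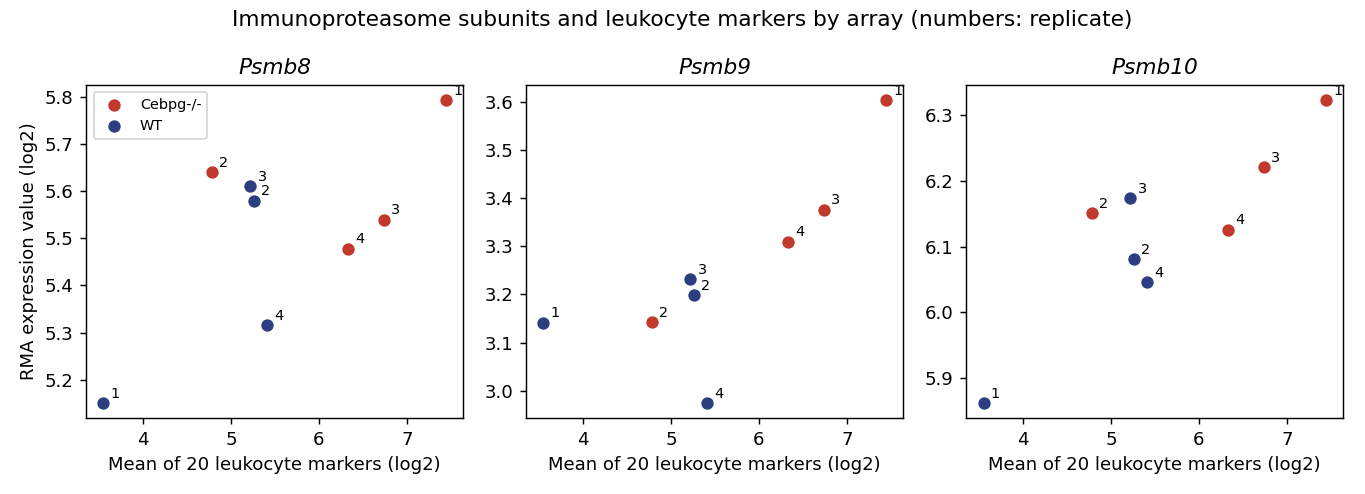
The RMA value of Psmb8, Psmb9 and Psmb10 on each array is plotted against the mean of 20 leukocyte markers on the same array, both on the log2 scale, with Cebpg-/- in red, WT in blue and the replicate number beside each point. Cebpg-/- replicate 1 lies at the top right of all 3 panels, and WT replicate 1 at the lower left for Psmb8 and Psmb10.

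Each immunoproteasome subunit was set against the constitutive subunit whose place it takes, by the difference of their values within an array. The change of Psmb8 exceeded that of Psmb5 by 0.06, that of Psmb9 exceeded Psmb6 by 0.03 and that of Psmb10 exceeded Psmb7 by 0.07. These signs were not stable. Without WT replicate 1 the differences were -0.04 for Psmb8 and -0.04 for Psmb10, without Cebpg-/- replicate 1 that for Psmb9 was -0.03, and without both first replicates all 3 were negative. None of the 3 differences passed an exact two-sided permutation test over the 70 splits of the arrays (p = 0.686, 0.771 and 0.657, each 0.771 after adjustment over the 3 pairs). The smallest p this test can give is 0.0286 before adjustment, so 1 pair alone could not have passed after adjustment over 3. The SD of the within-array difference between replicates ran from 0.07 to 0.25.

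The 6 ATPases of the 19S base, Psmc1 to Psmc6, unfold substrates and open the gate of the core. None passed (limma), and 2 had an unadjusted p under 0.05. Their median change of 0.07 was smaller than that of the constitutive beta genes, a difference that was not tested. Psmc1 read 8.84, 8.78, 8.85 and 8.79 in Cebpg-/- and 8.76, 8.56, 8.67 and 8.69 in WT, with a change of 0.14. Psmc3 had a change of 0.14 with separate groups too. Psmc2 and Psmc4 had changes of 0.06 and 0.05 with overlapping groups. Their second probe sets had changes of 0.11 and 0.14 with separate groups, and neither passed (limma). Psmc5 had the change closest to 0 of the 47 genes, 0.01 (95% interval -0.11 to 0.13), with overlapping groups. Psmc6 showed little spread, with 9.78 to 9.81 in Cebpg-/- and 9.70 to 9.74 in WT, and its change of 0.07 did not pass (limma, adjusted p = 0.367). Dimmer Psmc6 probe sets, at 7.70 and 5.61, had changes of 0.10 and -0.05 with overlapping groups.

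Non-ATPase subunits of the 19S particle include scaffolds, ubiquitin receptors and a deubiquitinase. Of 11 genes 1 was called higher, about the share of all genes (8.62%). All 11 had a positive change and 7 had separate groups, where 49.7% and 12.8% of all genes did. Psmd11, a subunit of the lid, read 9.95, 9.82, 9.87 and 9.92 in Cebpg-/- and 9.61, 9.49, 9.62 and 9.70 in WT. It had the largest change of the 47 genes, 0.29 (SE 0.06; limma adjusted p = 0.0172). Psmd11 has 8 probe sets. The 3 others above a level of 7 had changes of 0.08, 0.28 and 0.12 and did not pass, and with the mean of all 8 as its value the change was 0.07 (limma, adjusted p = 0.333).

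The base scaffolds Psmd1 and Psmd2 had separate groups and changes of 0.19 and 0.17 (limma, adjusted p = 0.0551 and 0.0657). Psmd1 read 9.60, 9.53, 9.54 and 9.57 in Cebpg-/- and 9.35, 9.29, 9.43 and 9.42 in WT. The ubiquitin receptor Psmd4 read 9.63, 9.62, 9.62 and 9.61 in Cebpg-/- and 9.57, 9.48, 9.59 and 9.54 in WT, with separate groups and a change of 0.08 (limma, adjusted p = 0.366). Psmd14, the deubiquitinase of the lid, had a change of 0.13 with separate groups (limma, adjusted p = 0.153). Psmd12 and Psmd13 had separate groups and changes of 0.10 and 0.14 (limma, adjusted p = 0.240 and 0.0905). Psmd3, Psmd7 and Psmd8 had overlapping groups and changes of 0.15, 0.20 and 0.15 (limma, adjusted p = 0.146, 0.199 and 0.251). Psmd6 had the smallest change of these genes, 0.03. Its second probe set had a change of 0.09 with separate groups and did not pass (limma). Those of Psmd4 and Psmd13 had changes of 0.09 and 0.15 with overlapping groups.

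Of 3 assembly chaperones of the 19S particle 1 was called higher, where 8.62% of all genes were. Psmd5, which holds part of the 19S base during assembly and leaves the finished particle, read 8.14, 8.08, 8.10 and 8.18 in Cebpg-/- and 7.83, 7.89, 7.86 and 7.91 in WT. It was 1.19-fold higher with no overlap (change 0.25, SE 0.05; limma adjusted p = 0.0143). The chaperones Psmd9 and Psmd10 had changes of 0.14 and 0.12, neither past the threshold (limma, adjusted p = 0.151 and 0.275). Of the 4 core chaperones Psmg1 to Psmg4 none passed (limma), and 1 had an unadjusted p under 0.05. That was Psmg3, with 7.05, 7.10, 7.01 and 7.07 in Cebpg-/- and 6.89, 6.99, 6.92 and 6.82 in WT (change 0.15, limma adjusted p = 0.111). Pomp, the maturation factor of the core, is not a member and had a change of 0.16 (limma, adjusted p = 0.108).

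Activators open the core without ATP. Psme1, a subunit of the interferon-induced PA28 cap, read 7.53, 7.52, 7.498 and 7.39 in Cebpg-/- and 7.30, 7.56, 7.62 and 7.38 in WT, and the groups overlapped (change 0.02). Psme3, the nuclear PA28 form, had a change of 0.09 and Psme4 (PA200) one of -0.05, and neither passed (limma, adjusted p = 0.281 and 0.587). Psmf1 encodes PI31, a protein that inhibits the core in vitro. It read 6.38, 6.28, 6.18 and 6.21 in Cebpg-/- and 5.94, 6.11, 6.11 and 5.99 in WT, a change of 0.22 with no overlap (limma, adjusted p = 0.0583). A dimmer Psmf1 probe set, at 3.28 over all arrays, rose by 0.42 (limma, adjusted p = 0.0214 over all probe sets).

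**Figure D4:**
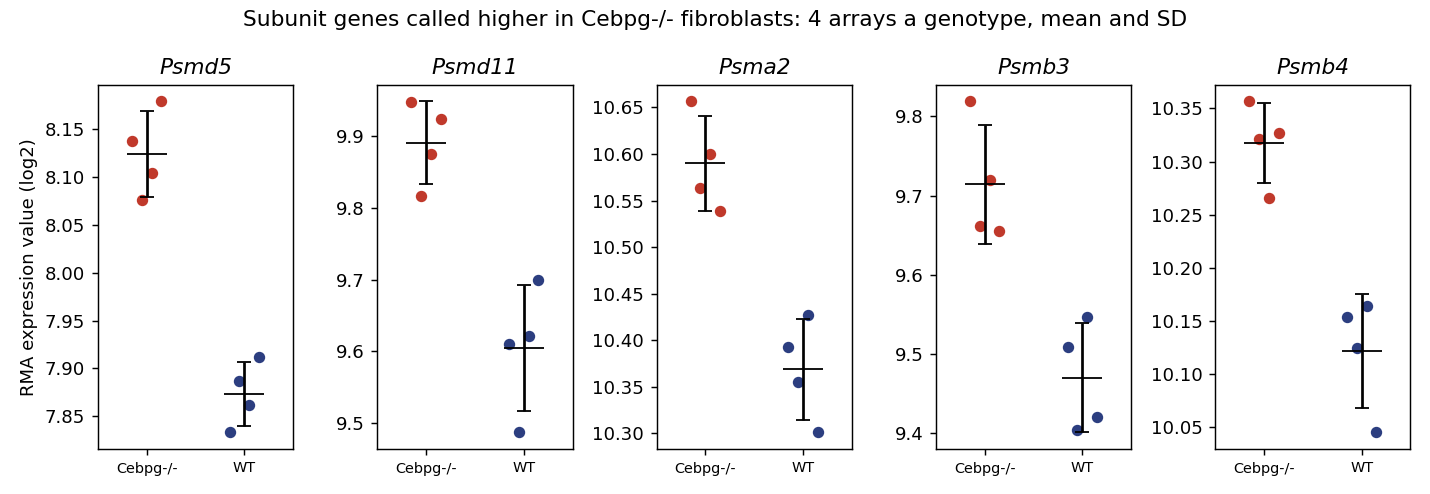
The RMA value (log2, vertical axes that do not start at 0 and differ between panels) of the 5 called genes is shown for each array, with Cebpg-/- at the left and WT at the right of each panel and the mean and SD in black. In all 5 panels the 4 Cebpg-/- points lie above the 4 WT points.

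The single calls depended on the scaling and the arrays used. With array medians subtracted 14 members were called higher (limma), where 2188 of all 18193 genes were. Psmd5 passed in all 8 fits that left out 1 array, with limma adjusted p between 0.0177 and 0.0467. Psmd11 passed in 7 of these, and not without Cebpg-/- replicate 1 (0.0556). Psma2 and Psmb3 were each lost without Cebpg-/- replicate 1 (limma, adjusted p = 0.0893 and 0.0888), Cebpg-/- replicate 3 (0.0791 and 0.0782) or WT replicates 1 (0.0665 and 0.0630), 2 (0.0591 and 0.0670) and 4 (0.0544 and 0.0541). Psmb4 was lost in all 8 (0.0645 to 0.112). With the leukocyte marker mean as a covariate 0 of the 47 genes passed (limma, with 250 higher and 118 lower among all genes), 42 changes were positive and the median was 0.11. Without both first replicates, the extremes of that mean, 0 passed, 44 were positive and the median was 0.125.

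Of the 100 probe sets that name a subunit gene alone, 53 were not the brightest of their gene. Of these 53, 35 had a positive change. With a mean of at least 7 there were 16, of which 15 were positive, and the exception was a Psme4 probe set. Counted over probe sets, 6 were called higher and 0 lower (limma, adjusted over 45037 probe sets, of which 4.82% were called higher).

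Genes that work with the proteasome were described from other lists. Of 8 measured genes of NRF1, related factors and partners 3 were higher and 0 lower, where 8.62% of all genes were higher. The 3 were Maff (0.44), Nfe2l2, the gene of the related factor NRF2 (0.24), and Ngly1, which removes glycans from NRF1 (0.25). Nfe2l1 read 7.84, 7.90, 7.71 and 7.93 in Cebpg-/- and 7.91, 7.89, 8.04 and 8.01 in WT, a change of -0.11 with overlapping groups (limma, adjusted p = 0.297). Of 12 proteasome partners 1 was higher. This was Zfand2a, a stress-induced protein that binds the proteasome, with 7.96, 7.27, 7.57 and 7.73 in Cebpg-/- and 6.65, 6.61, 6.91 and 6.80 in WT (1.85-fold, limma adjusted p = 0.00343). Of 6 measured ubiquitin and shuttle genes none passed (limma), 2 had an unadjusted p under 0.05, and Sqstm1 and Ubqln2 had changes of 0.25 and -0.15.

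Peptide loading on MHC class I is the step that follows the immunoproteasome. Of 11 measured genes of this step and its regulators 4 were higher and 0 lower. Of all genes 8.62% were higher and 3.99% lower. Tap1, a peptide transporter, read 5.05, 5.08, 4.95 and 4.95 in Cebpg-/- and 4.09, 4.42, 4.81 and 4.29 in WT, with no overlap (change 0.61, limma adjusted p = 0.0153). The others were H2-D1 (0.39) and H2-K1 (0.32), class I genes with near-identical relatives that their probe sets may not tell apart, and Nlrc5 (0.34). The regulator Nlrc5 lay low on the scale at 2.01, below the median probe set of each array. Irf1, a driver of immunoproteasome genes, had overlapping groups and a change of -0.22 (limma, adjusted p = 0.232). Of 19 interferon response genes 2 were higher, Ifit2 (0.59) and Ifit3 (0.63), and 0 lower, which is near those shares. The change was positive in 16 of the 19, with a median of 0.39, where 49.7% of all genes were positive. An unadjusted p under 0.05 was found for 5 (limma). Their mean was 5.39, 4.62, 5.37 and 5.15 in Cebpg-/- and 4.21, 4.21, 5.05 and 5.13 in WT, with overlapping groups. The leukocyte marker mean was on average higher in Cebpg-/- beside these lists, with overlapping groups, and its part in them was not tested.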

How the data were processed

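Biotin-labelled RNA of 8 cultures was read on 1 array each. The authors deposited 1 log2 value per probe set and array, computed by RMA according to the submitters' processing notes. Version and options of RMA are not stated in any source used here. RMA sets the arrays to a common distribution and compresses changes of dim probe sets. The 45037 probe sets left after 64 controls were named through the platform's annotation, with symbols updated by Entrez number through RefSeq (GRCm38.p6).

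Values were fitted with limma 3.58.1 (R 4.3.3; lmFit and eBayes, with a term for genotype alone) on every probe set, and the p-values for 18193 genes were adjusted by Benjamini-Hochberg (threshold 0.05). The fit was tested on simulated data. The genes named are all members, up to 4 called genes per other list (up to 2 where none passed) and Nfe2l1, Nfe2l2, Pomp, Tap1, Irf1 and Cebpg. The members, lists, motifs and tests were chosen with earlier results of these data known. Alternatives were other scalings, a filter (above 2.73 on 4 or more arrays), averaged probe sets, other variance models, a replicate block, a leukocyte covariate and leaving out arrays. Levels of different probe sets served only to pick a gene's probe set and to group genes by level. No batch is named in the sources used here.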

Additional observations from a re-analysis of the deposited data

Results flagged for a closer look

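In 5 of 94 groups of 4 values (47 genes in each genotype) 1 array stood apart from the other 3 by Dixon's test, and chance alone flags about 1 in 20 groups. Psma7 read 9.82 on Cebpg-/- replicate 4, where the other Cebpg-/- arrays read 9.76 to 9.77. Psmc3 read 9.62 on Cebpg-/- replicate 3, where the others read 9.67. Psmb2 read 9.15 on WT replicate 3 beside 9.08 on the others, and Psmd2 read 9.38 on the same array beside 9.26 to 9.28. Psmb11 read 1.84 on WT replicate 1 beside 1.58 to 1.61, at the bottom of the scale. None of the 5 genes is among those called.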

How the results depend on the processing

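A positive sign in most members held under every alternative run, with 41 (quantile normalization) to 45 of 47 members positive, or 44 of 45 with dim probe sets left out, and 0 were called lower in any. The median change ran from 0.117 to 0.144 when 1 array was left out and was 0.166 with array medians subtracted, 0.0944 with probe sets averaged per gene and 0.109 with the leukocyte covariate. The count of members called higher was less stable: 14 with array medians subtracted, 12 at a threshold of 0.1, 10 with dim probe sets left out, 10 with an intensity trend, 1 (Psmd11) with the replicate block, 0 with the leukocyte covariate, 0 without both first replicates, and 1 to 4 when 1 array was left out. It was 5 after subtracting the median of bright genes, which, like leaving out both first replicates, was chosen after seeing the data. Of all 18193 genes 2188 were called higher with array medians subtracted, 2350 at the threshold of 0.1 and 1677 with an intensity trend. With dim probe sets left out 1698 of 11704 genes were.

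Over all genes, 1569 higher and 726 lower calls became 780 to 1690 and 395 to 969 when 1 array was left out. The counts were 978 higher with the replicate block, 250 and 118 with the leukocyte covariate, 347 and 182 without both first replicates and 1266 lower at the threshold of 0.1. Higher calls made up 68.4% of all calls as deposited, 56.7% under quantile normalization and 78.9% with array medians subtracted, which moved the median of all genes to 0.0336.

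The cause of these shifts was not tested. The labels do not say whether cultures of the same replicate number belong together. Correlations of same-number deviations were -0.359, 0.147, 0.0173 and 0.0453. No Cebpg-/- culture correlated best with the WT culture of its own number. Of the WT cultures only replicate 2 correlated best with its own number. Expression values alone cannot show how cultures were prepared, so a pairing was not excluded. Changes that turned sign lay near 0 and passed in no fit. They were Psmc5 (-0.0137), Psme1 (-0.0101), Psmg2 (-0.0126) and Psmg4 (-0.0235) after quantile normalization, Psma3 (-0.0502) and Psmg2 (-0.0161) with probe sets averaged, Psmc5 with array weights (-0.000759) or bright-gene centring (-0.00178), Psma8 (-0.00873), Psme1 (-0.0444) and Psmg4 (-0.011) with the leukocyte covariate, and Psme1 without both first replicates (-0.0502). With 1 array left out the ranges were -0.00725 to 0.0976 for Psmc4, -0.0116 to 0.0277 for Psmc5, -0.0244 to 0.0726 for Psmd6, -0.0353 to 0.0694 for Psme1, -0.0124 to 0.0669 for Psmg1 and -0.0396 to 0.0733 for Psmg2, and without both first replicates Psmc4 and Psmd6 had 0.101 and 0.0901. The difference Psmb8 minus Psmb5 was -0.00524 with probe sets averaged, and without both first replicates the 3 differences were -0.0827, -0.0318 and -0.059. With 1 array left out they ran from -0.0384 to 0.119 for Psmb8, from -0.0254 to 0.106 for Psmb9 and from -0.0375 to 0.142 for Psmb10. With the replicate block, in exact sign flips, each adjusted p was 0.875.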

Other observations

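The brightest probe sets of Psmc4 and Psmd6 and the second probe set of Psmb4 shared an order of the WT arrays, chosen here after their values were seen. Psmc4 read 9.78, 9.69, 9.97 and 9.71 in Cebpg-/- and 9.86, 9.68, 9.58 and 9.80 in WT. Psmd6 read 9.67, 9.75, 9.82 and 9.66 in Cebpg-/- and 9.81, 9.66, 9.52 and 9.78 in WT. The Psmb4 probe set read 10.06, 10.11, 10.23 and 10.10 in Cebpg-/- and 10.13, 9.97, 9.94 and 10.07 in WT. In all 3, replicate 3 was the highest Cebpg-/- array and the lowest WT array. The other probe set of each gene did not do so: the second one of Psmc4 read 8.95, 8.89, 8.89 and 8.86 in Cebpg-/- and 8.83, 8.67, 8.76 and 8.77 in WT, with no overlap and a change of 0.14.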
